A study of Mus musculus with 2 samples.

Results

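The extracellular matrix genes described here are 37 genes of basement membrane, perineuronal and matricellular proteins, chosen by symbol from the 23284 gene symbols of the deposited tables: 10 laminin chains, 4 laminin partners, 4 lecticans, 4 link proteins, 2 tenascins, 3 adhesive glycoproteins, 4 thrombospondins, 3 genes of the Sparc and osteopontin kind and 3 small leucine-rich proteoglycans. They were measured by RNA sequencing in 2 mouse medulloblastomas, tumours of the cerebellum, with 1 library per genotype. The Brg1 knockout tumour came from a CAG-CreER, Rosa26-SmoM2, Brg1F/F mouse and the wild-type tumour from a CAG-CreER, Rosa26-SmoM2, Brg1+/+ mouse. Both animals therefore carried the inducible Cre recombinase and SmoM2, a constantly active Smoothened that drives Hedgehog signalling, and both were given 10 tamoxifen injections. CAG is a broadly active promoter, so the labels do not confine recombination to tumour cells, and the RNA was total RNA of dissected tumour tissue. No age is given for the mice.

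Laminins are built from an alpha, a beta and a gamma chain and form the first sheet of a basement membrane, which nidogens, perlecan and agrin tie to collagen IV and to cells. The adult brain has little such matrix outside its vessels and meninges. Its spaces are filled instead by lecticans, chondroitin sulfate proteoglycans that hang on hyaluronan, with link proteins clamping the bond and tenascin-R crosslinking the complexes. Around some neurons, those of the deep cerebellar nuclei among them, this material condenses into perineuronal nets. Matricellular proteins such as Sparc and the thrombospondins are secreted into the matrix and modulate adhesion and synapse formation rather than bearing load.

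Values are FPKM, which corrects fragment numbers for the length of the transcript and the size of the library, so levels of different genes can be set side by side. The log2 ratio is log2((knockout FPKM + 1)/(wild-type FPKM + 1)), in which the added 1 FPKM understates the difference of low genes. A gene was called higher where the log2 ratio reached 1, lower where it reached -1, and "within 2-fold" otherwise. Each genotype has 1 library, so the values carry no replicate error, test or p-value, and a difference between the animals cannot be told apart from one of genotype. Read counts and depth are unknown from these files. Smarca4, the gene of Brg1, had 3.76 FPKM in the knockout and 14.05 FPKM in the wild-type library, which is 26.8% of the wild-type value, measured over the whole gene and not over the deleted part alone. The tissue's own markers, 7 genes of dividing granule precursors and Hedgehog tumours, ranged from 1.62 to 21.01 FPKM in the knockout and from 16.9 to 107.1 FPKM in the wild-type library, and 7 of 7 were called lower.

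Matrix genes were more often higher than lower in the knockout library. Of all 37, 14 were called higher (37.8%) and 1 lower (2.70%). The background over all 23746 records was 9.01% called higher and 4.85% lower. At least 1 FPKM in a library was reached by 29 of the genes, and among the 13279 records that passed this filter 16.1% were called higher and 8.67% lower. Of the 29, 22 passed in both libraries, 5 only in the knockout library (Lama2, Tnr, Hapln2, Hapln4 and Thbs1) and 2 only in the wild-type library (Lama1 and Tnc). A gene that passed through 1 library alone had to differ, so the count over the 29 carries no weight of its own. Among the 22 that passed in both, 9 were higher and 1 lower. The share over all records that passed in both was not computed, so this count has no background beside it. The median log2 ratio was 0.31 over all 37 genes, beside 0 over all records. It was 0.92 over the 29, beside 0.09 over all records that passed. The median over the 29 has the same limit as their count, since 5 of them passed only through the knockout library. Rescaling both libraries to the same FPKM sum moved the median over all records that passed from 0.09 to 0.25, which bears on every log2 ratio given here.

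**Figure D1:**
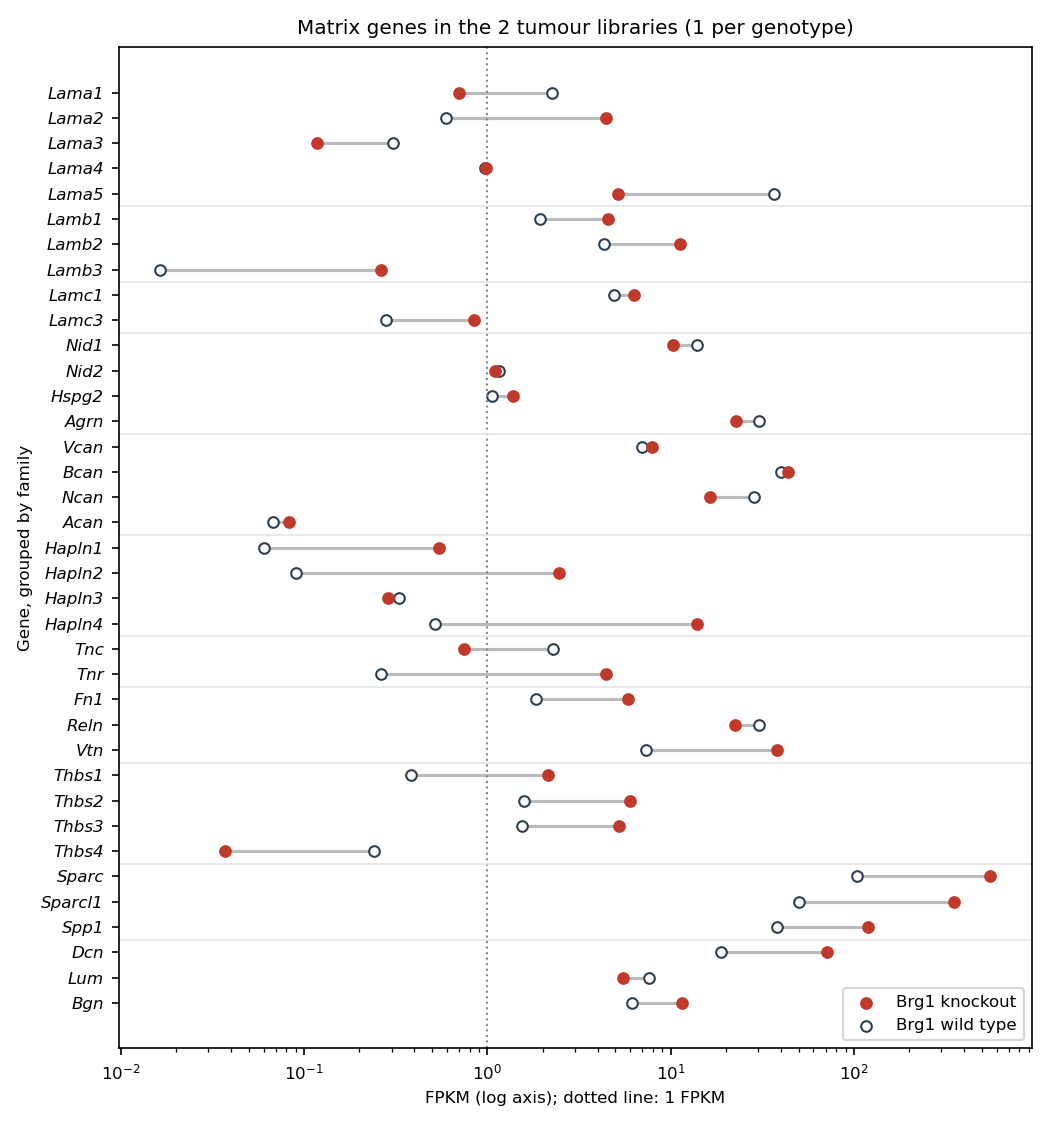
FPKM of the 37 matrix genes on a log axis, filled points for the Brg1 knockout and open points for the Brg1 wild-type library, 1 library each, joined by a line per gene and grouped by family. Lama5 lies far to the right in the wild-type library (36.7 against 5.15 FPKM in the knockout library), while Hapln4, Tnr, Sparc and Sparcl1 lie far to the right in the knockout library.

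Of the laminin alpha chains, 1 was called lower and 1 higher. Lama5 (chromosome 2, 180176373 to 180225859, mm10), whose chain is the broadly used alpha chain of mature vascular and epithelial basement membranes, had 5.15 FPKM in the knockout and 36.7 FPKM in the wild-type library. It was the 1 gene of the 37 called lower (log2 ratio -2.62, and -2.26 when computed from bound midpoints), and 0.602% of expressed records had a lower ratio. Lama2 (chromosome 10, 26981285 to 27616942), whose chain is mutated in a congenital muscular dystrophy and is also laid down by cells of brain vessels, had 4.43 FPKM in the knockout and 0.593 FPKM in the wild-type library (log2 ratio 1.77). Lama1, an early embryonic and pial chain, had 0.698 FPKM in the knockout and 2.25 FPKM in the wild-type library. Its log2 ratio of -0.94 lay just inside the cutoff, and it was past it with 0.5 FPKM added (-1.20), with 0.1 FPKM added (-1.56) and after centring on the median (-1.02). Lama4, an endothelial chain, had 0.987 FPKM in the knockout and 0.965 FPKM in the wild-type library, and Lama3, an epithelial chain, had 0.117 FPKM in the knockout and 0.306 FPKM in the wild-type library, so neither reached 1 FPKM.

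These differences changed the make-up of the alpha chains more than that of the other chains. Shares within a library do not depend on how that library was scaled. Lama5 made up 45.3% of the summed alpha-chain FPKM in the knockout and 89.9% in the wild-type library, while Lama2 made up 38.9% in the knockout and 1.45% in the wild-type library. Lama5 exceeded Lama2 by 1.16-fold in the knockout and by 61.9-fold in the wild-type library. From the midpoints of the deposited bounds this ratio was 0.924 in the knockout and 36.9 in the wild-type library, so which of these chains led in the knockout library depends on the column read. The alpha chains together summed to 11.4 FPKM in the knockout and 40.9 FPKM in the wild-type library.

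The make-up of the beta and gamma chains differed less between the libraries. Lamb2, the beta chain of neuromuscular and vascular membranes, had 11.2 FPKM in the knockout and 4.31 FPKM in the wild-type library (log2 ratio 1.20). Lamb1, the widespread embryonic beta chain, had 4.56 FPKM in the knockout and 1.94 FPKM in the wild-type library, just inside the cutoff (log2 ratio 0.92) and past it with the same FPKM sum in each library (1.05). Lamb2 held 69.9% of the beta-chain sum in the knockout and 68.8% in the wild-type library, with FPKM ratios of 2.59 for Lamb2 and 2.35 for Lamb1. Lamc1, the common gamma chain, had 6.28 FPKM in the knockout and 4.93 FPKM in the wild-type library (log2 ratio 0.30). Lamc3 had 0.841 FPKM in the knockout and 0.281 FPKM in the wild-type library, and Lamb3, of epithelial laminin, had 0.262 FPKM in the knockout and 0.016 FPKM in the wild-type library. Both stayed under 1 FPKM.

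The promoters of the opposite alpha chains are shown, and they differ in base composition. They were picked after the values were known. Each is the 250 bases before the RefSeq start on build GRCm38.p6, written 5′ to 3′ on the strand of the gene, here the minus strand of chr2:180225860-180226109 for Lama5 and of chr10:27616943-27617192 for Lama2. Capitals mark any match to the motifs named further on, which in Lama5 are 4 GC boxes.
Lama5: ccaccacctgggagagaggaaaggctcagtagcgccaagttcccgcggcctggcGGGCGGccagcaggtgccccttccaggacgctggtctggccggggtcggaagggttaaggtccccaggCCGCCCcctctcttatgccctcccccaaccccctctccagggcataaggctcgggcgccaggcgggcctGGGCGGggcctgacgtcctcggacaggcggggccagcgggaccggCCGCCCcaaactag
Lama2: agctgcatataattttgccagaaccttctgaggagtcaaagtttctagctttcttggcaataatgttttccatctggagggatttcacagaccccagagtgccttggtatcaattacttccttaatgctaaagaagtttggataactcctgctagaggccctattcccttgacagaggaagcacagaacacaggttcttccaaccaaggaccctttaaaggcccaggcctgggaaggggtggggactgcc
The Lama5 window holds 19 CG pairs and the Lama2 window 0, and the Lama2 window holds none of the motifs searched (0 matches).

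The proteins that tie laminin into the basement membrane were all within 2-fold, 0 of 4 called. Agrn, the proteoglycan that clusters acetylcholine receptors at nerve endings and lines brain vessels, had 22.6 FPKM in the knockout and 30.3 FPKM in the wild-type library (log2 ratio -0.41). Nid1, a nidogen that bridges laminin and collagen IV, had 10.3 FPKM in the knockout and 14.01 FPKM in the wild-type library (log2 ratio -0.41). Hspg2, which encodes perlecan, had 1.38 FPKM in the knockout and 1.06 FPKM in the wild-type library. Nid2, the second nidogen, had 1.10 FPKM in the knockout and 1.16 FPKM in the wild-type library, but its 3′ end overlaps another record on the opposite strand, 2700060E02Rik, which had 81.4 FPKM in the knockout and 109.1 FPKM in the wild-type library. The labels do not say whether counting used strand. The 4 genes summed to 35.4 FPKM in the knockout and 46.6 FPKM in the wild-type library.

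Markers of cells that make vascular and meningeal matrix were measured beside these genes. Most marker genes here and below reached 1 FPKM in a library. Of all records that did, 16.1% were called higher and 8.67% lower. Of 10 endothelial markers 2 were called higher, with a sum of 108.02 FPKM in the knockout and 35.1 FPKM in the wild-type library. Ly6c1 made up most of the knockout sum, with 66.5 FPKM in the knockout and 10.2 FPKM in the wild-type library. Of 8 pericyte and smooth muscle markers 0 were called, with sums of 14.9 FPKM in the knockout and 9.73 FPKM in the wild-type library. Of 7 fibroblast and meningeal markers 2 were called higher, Slc6a13 and Col1a2, with sums of 54.3 FPKM in the knockout and 28.997 FPKM in the wild-type library. Each of these markers was above 0 in both libraries. In bulk tissue, fewer cells of a type and less RNA per cell cannot be told apart, and the part of these cells in the laminin values was not tested.

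All 4 lecticans were within 2-fold. Bcan, the brain-specific brevican, had 43.6 FPKM in the knockout and 40.2 FPKM in the wild-type library (log2 ratio 0.12). Ncan, neurocan, which is most abundant in the developing brain, had 16.5 FPKM in the knockout and 28.4 FPKM in the wild-type library, within 2-fold (log2 ratio -0.75). Vcan, versican, made by glial precursors and many mesenchymal cells, had 7.90 FPKM in the knockout and 6.95 FPKM in the wild-type library. Acan, aggrecan, the core of perineuronal nets and of cartilage, was near the bottom of the range at 0.082 FPKM in the knockout and 0.068 FPKM in the wild-type library. The 4 lecticans summed to 68.1 FPKM in the knockout and 75.6 FPKM in the wild-type library, and Bcan took 64.05% of the sum in the knockout and 53.2% in the wild-type library.

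Of the 4 link protein genes, Hapln4 and Hapln2 differed far more than the lecticans. Both reached 1 FPKM only in the knockout library. The 4 Hapln genes summed to 17.3 FPKM in the knockout and 0.996 FPKM in the wild-type library. Hapln4, a brain link protein of perineuronal nets and inhibitory synapses in the cerebellum and brainstem, had 13.9 FPKM in the knockout and 0.516 FPKM in the wild-type library. At 3.30 its log2 ratio, with 1 FPKM added, was the highest of all 37 genes, and the plain FPKM ratio was 27.04-fold. Hapln2, the link protein of the nodes of Ranvier in myelinated tracts, had 2.47 FPKM in the knockout and 0.090 FPKM in the wild-type library (log2 ratio 1.67), a 27.5-fold ratio of FPKM. Hapln1, the cartilage link protein, had 0.547 FPKM in the knockout and 0.061 FPKM in the wild-type library, and Hapln3 had 0.288 FPKM in the knockout and 0.330 FPKM in the wild-type library, so both remained under 1 FPKM. Hapln4 made up 80.8% of the link protein sum in the knockout and 51.8% in the wild-type library, where all 4 genes were under 1 FPKM. From the midpoints of the deposited bounds Hapln4 took 73.2% in the knockout and 40.8% in the wild-type library. Hapln3 took 39.5% by midpoints in the wild-type library.

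Each lectican gene lies beside a link protein gene, and in 2 of the 4 pairs the link protein gene was called higher and the lectican gene was not. Ncan and Hapln4 are 2.22 kb apart on chromosome 8 (Hapln4 70083529 to 70090862, Ncan 70093085 to 70120844, mm10) with 0 records between them, and had log2 ratios of -0.75 and 3.30. Ncan exceeded Hapln4 by 1.18-fold in the knockout and by 55.04-fold in the wild-type library. From the midpoints of the deposited bounds these were 1.63-fold in the knockout and 78.9-fold in the wild-type library. Bcan and Hapln2 are 21.4 kb apart on chromosome 3 (Bcan 87987531 to 88000356, Hapln2 88021750 to 88027511), with log2 ratios of 0.12 and 1.67. Bcan exceeded Hapln2 by 17.6-fold in the knockout and by 446.8-fold in the wild-type library. Vcan and Hapln1 on chromosome 13 are 43.5 kb apart, with log2 ratios of 0.16 and 0.54. Acan and Hapln3 on chromosome 7 are 1.93 kb apart and both stayed under 1 FPKM.

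**Figure D2:**
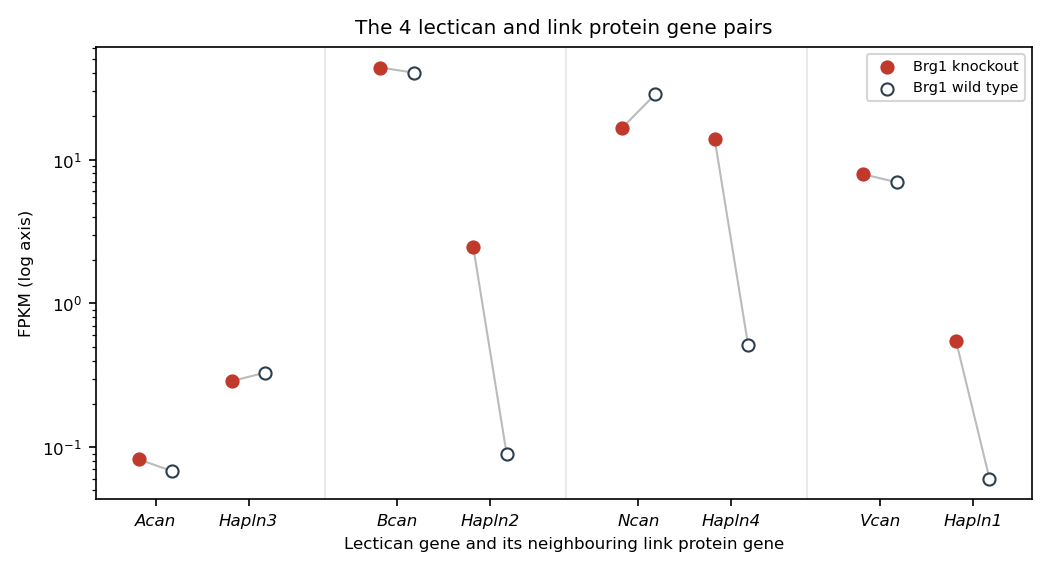
FPKM on a log axis of the 4 lectican genes and their neighbouring link protein genes, filled points for the Brg1 knockout and open points for the Brg1 wild-type library, 1 library each. Hapln2 and Hapln4 were called higher in the knockout library while the lectican beside each of them lay within 2-fold. The log axis draws out the difference of Hapln1, which stayed under 1 FPKM and within 2-fold by the log2 ratio.

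The windows before the starts of Bcan and Hapln2 are shown as neighbours that also differ in CG pairs, although Bcan, unlike Lama5, was within 2-fold. Both genes lie on the minus strand, and the windows are chr3:88000357-88000606 for Bcan and chr3:88027512-88027761 for Hapln2 (GRCm38.p6, RefSeq, 5′ to 3′ on the gene's strand). Capitals mark a CCAAT box in each and a GC box in Bcan.
Bcan: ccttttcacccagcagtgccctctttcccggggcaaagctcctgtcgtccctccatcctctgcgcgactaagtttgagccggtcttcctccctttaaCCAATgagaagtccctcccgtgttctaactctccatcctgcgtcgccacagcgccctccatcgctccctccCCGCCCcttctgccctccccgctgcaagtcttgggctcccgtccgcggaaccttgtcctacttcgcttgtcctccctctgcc
Hapln2: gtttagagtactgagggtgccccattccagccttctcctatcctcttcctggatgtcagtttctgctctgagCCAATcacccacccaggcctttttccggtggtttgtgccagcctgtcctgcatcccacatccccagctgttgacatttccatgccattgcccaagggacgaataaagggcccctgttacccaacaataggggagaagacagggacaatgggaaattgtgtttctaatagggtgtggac
The Bcan window holds 16 CG pairs and the Hapln2 window 2. Of the pair of Ncan and Hapln4, the Ncan window holds 6 CG pairs and Hapln4 had no window.

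The order of the tenascins differed between the libraries. Tnr, which encodes tenascin-R, made by oligodendrocytes and some interneurons and built into perineuronal nets, had 4.44 FPKM in the knockout and 0.263 FPKM in the wild-type library (log2 ratio 2.11). Tnc, which encodes tenascin-C of progenitor zones, immature astrocytes and wounds, had 0.747 FPKM in the knockout and 2.28 FPKM in the wild-type library. The log2 ratio of Tnc was -0.91, just inside the cutoff, and lay past it with 0.5 FPKM added (-1.16). Tnr exceeded Tnc by 5.95-fold in the knockout library, and Tnc exceeded Tnr by 8.66-fold in the wild-type library.

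Markers of oligodendrocytes, their precursors, interneurons and Purkinje cells were also measured, and the lists did not all go the same way. All 7 mature oligodendrocyte markers were called higher, with a sum of 681.4 FPKM in the knockout and 60.4 FPKM in the wild-type library. Among 5 oligodendrocyte precursor markers 3 were lower and 1 higher, with sums of 79.4 FPKM in the knockout and 183.9 FPKM in the wild-type library. All 6 interneuron markers were higher, with a sum of 538.8 FPKM in the knockout and 61.004 FPKM in the wild-type library, as were all 7 Purkinje cell markers, with 613.6 FPKM in the knockout and 7.82 FPKM in the wild-type library. None of these was listed at 0 in either library, and their part in the link protein and tenascin values was not tested.

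The most abundant matrix genes were Sparc and Sparcl1, and both were higher in the knockout library. Sparc (chromosome 11, 55394501 to 55420080), a collagen-binding matricellular protein of vessels, microglia and astroglia, had 556.2 FPKM in the knockout and 104.5 FPKM in the wild-type library (log2 ratio 2.40). Sparcl1, also called hevin, which astrocytes secrete and which promotes synapse formation, had 352.4 FPKM in the knockout and 50.5 FPKM in the wild-type library (log2 ratio 2.78). Together they took 66.97% of the FPKM sum of the 37 genes in the knockout and 34.7% in the wild-type library. Without them the remaining genes summed to 448.1 FPKM in the knockout and 292.2 FPKM in the wild-type library.

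The levels of these 2 genes, more than their ratios, depend on which deposited column is read. The tables give each FPKM a lower and an upper bound, and for Sparcl1 these were 1271 to 1288 FPKM in the knockout and 238.6 to 246.5 FPKM in the wild-type library, far above the FPKM itself. For Sparc they were 978.2 to 995.2 FPKM in the knockout and 205.3 to 214.3 FPKM in the wild-type library. From the midpoints the pair took 83.4% of the sum of the 37 genes in the knockout and 62.7% in the wild-type library. The log2 ratios from the midpoints were 2.39 for Sparcl1 and 2.23 for Sparc. Sparc exceeded Sparcl1 by FPKM (1.58-fold in the knockout and 2.07-fold in the wild-type library) but not by midpoints (0.771 in the knockout and 0.865 in the wild-type library), so no order of these genes can be given. FPKM lay outside its own bounds for 22 of the 37 genes in the knockout and 18 in the wild-type library, and for 51.2% of expressed records in the knockout and 49.002% in the wild-type library. The bounds were therefore not used as errors.

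Spp1, which encodes osteopontin, a secreted ligand of integrins and Cd44 made by activated microglia among others, had 119.6 FPKM in the knockout and 38.2 FPKM in the wild-type library (log2 ratio 1.62). It lies 321.02 kb from Sparcl1 on chromosome 5, in a stretch that also holds Dmp1, Dspp, Ibsp and Mepe. Of 10 astrocyte and Bergmann glia markers 9 were called higher, with sums of 2577 FPKM in the knockout and 508.1 FPKM in the wild-type library. Of 9 microglia and macrophage markers 7 were higher, with sums of 250.8 FPKM in the knockout and 104.7 FPKM in the wild-type library. None of either list was at 0, and their part in the Sparc, Sparcl1 and Spp1 values was not tested.

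The window before the start of Sparc, the gene with the highest FPKM of the 37, is on the minus strand at chr11:55420081-55420330 (GRCm38.p6, RefSeq, 5′ to 3′).
Sparc: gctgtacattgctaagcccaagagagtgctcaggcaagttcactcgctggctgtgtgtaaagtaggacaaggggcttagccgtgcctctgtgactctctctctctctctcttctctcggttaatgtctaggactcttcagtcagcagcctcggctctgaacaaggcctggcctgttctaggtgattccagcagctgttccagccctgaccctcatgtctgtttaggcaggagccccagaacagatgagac
It holds 4 CG pairs and 0 matches to the motifs searched, so it has no capitals.

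Thrombospondins were higher in the knockout library in 3 of 4 cases. Thbs2, which like Thbs1 is secreted by astrocytes and promotes synapses, had 6.01 FPKM in the knockout and 1.58 FPKM in the wild-type library (log2 ratio 1.44). Thbs1 had 2.14 FPKM in the knockout and 0.383 FPKM in the wild-type library (log2 ratio 1.18). Thbs3, of the branch related to cartilage oligomeric matrix protein, had 5.23 FPKM in the knockout and 1.55 FPKM in the wild-type library (log2 ratio 1.29). Its span overlaps that of Mtx1 on the opposite strand in GENCODE M21, although the deposited records do not overlap, and whether exons overlap was not measured. Thbs4, its close relative, had 0.037 FPKM in the knockout and 0.240 FPKM in the wild-type library. The main members held similar shares of the family sum in both libraries, with Thbs2 at 44.8% of the sum in the knockout and 42.1% in the wild-type library, and Thbs3 at 38.99% in the knockout and 41.3% in the wild-type library.

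**Figure D3:**
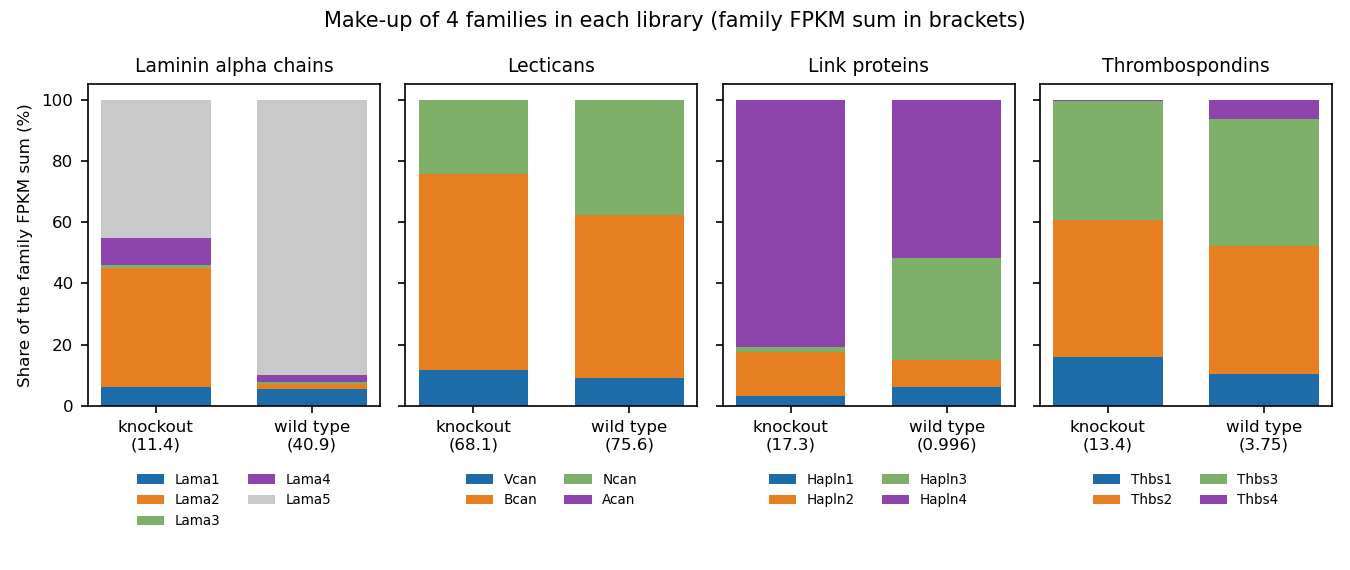
Share of each gene in the FPKM sum of its family, as stacked bars from 0 to 100%, with the knockout bar to the left of the wild-type bar and the family sum in FPKM in brackets, 1 library each. Lama5 fills 89.9% of the alpha-chain bar in the wild-type library and shares it with Lama2 in the knockout library (45.3% and 38.9%), while Bcan is the largest part of the lectican bar in both libraries (64.05% in the knockout and 53.2% in the wild-type library).

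The adhesive glycoproteins did not move as a group. Vtn, vitronectin, an integrin ligand of blood plasma that brain pericytes also make, had 37.8 FPKM in the knockout and 7.34 FPKM in the wild-type library (log2 ratio 2.22). Among the 8 pericyte and smooth muscle markers, Rgs5 and Pdgfrb had the highest log2 ratios, both just inside the cutoff (0.87 each). Rgs5 had 6.73 FPKM in the knockout and 3.23 FPKM in the wild-type library. Pdgfrb had 2.20 FPKM in the knockout and 0.753 FPKM in the wild-type library. Kcnj8 (0.26), Anpep (0.24) and Myh11 (0.08) had smaller log2 ratios, and Tagln (-0.16), Acta2 (-0.15) and Abcc9 (-0.12) had negative ones. Rgs5 and Pdgfrb were picked after their values were seen, and the part of pericytes in the Vtn value was not tested. Fn1, fibronectin, had 5.82 FPKM in the knockout and 1.85 FPKM in the wild-type library (log2 ratio 1.26). Reln, reelin, the signal that granule neurons and their precursors secrete to place Purkinje cells, had 22.4 FPKM in the knockout and 30.5 FPKM in the wild-type library, within 2-fold (log2 ratio -0.43).

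Among the small leucine-rich proteoglycans, which bind collagen fibrils and growth factors, Dcn and Lum differed although they are neighbours on chromosome 10. Dcn, decorin, had 71.6 FPKM in the knockout and 18.7 FPKM in the wild-type library (log2 ratio 1.88). Lum, lumican, 47.3 kb away with 0 records between, had 5.48 FPKM in the knockout and 7.63 FPKM in the wild-type library (log2 ratio -0.41). Dcn exceeded Lum by 13.1-fold in the knockout and by 2.45-fold in the wild-type library. From the midpoints of the deposited bounds these were 24.4-fold in the knockout and 4.67-fold in the wild-type library. Bgn, biglycan, had 11.5 FPKM in the knockout and 6.18 FPKM in the wild-type library, within 2-fold (log2 ratio 0.80).

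**Figure D4:**
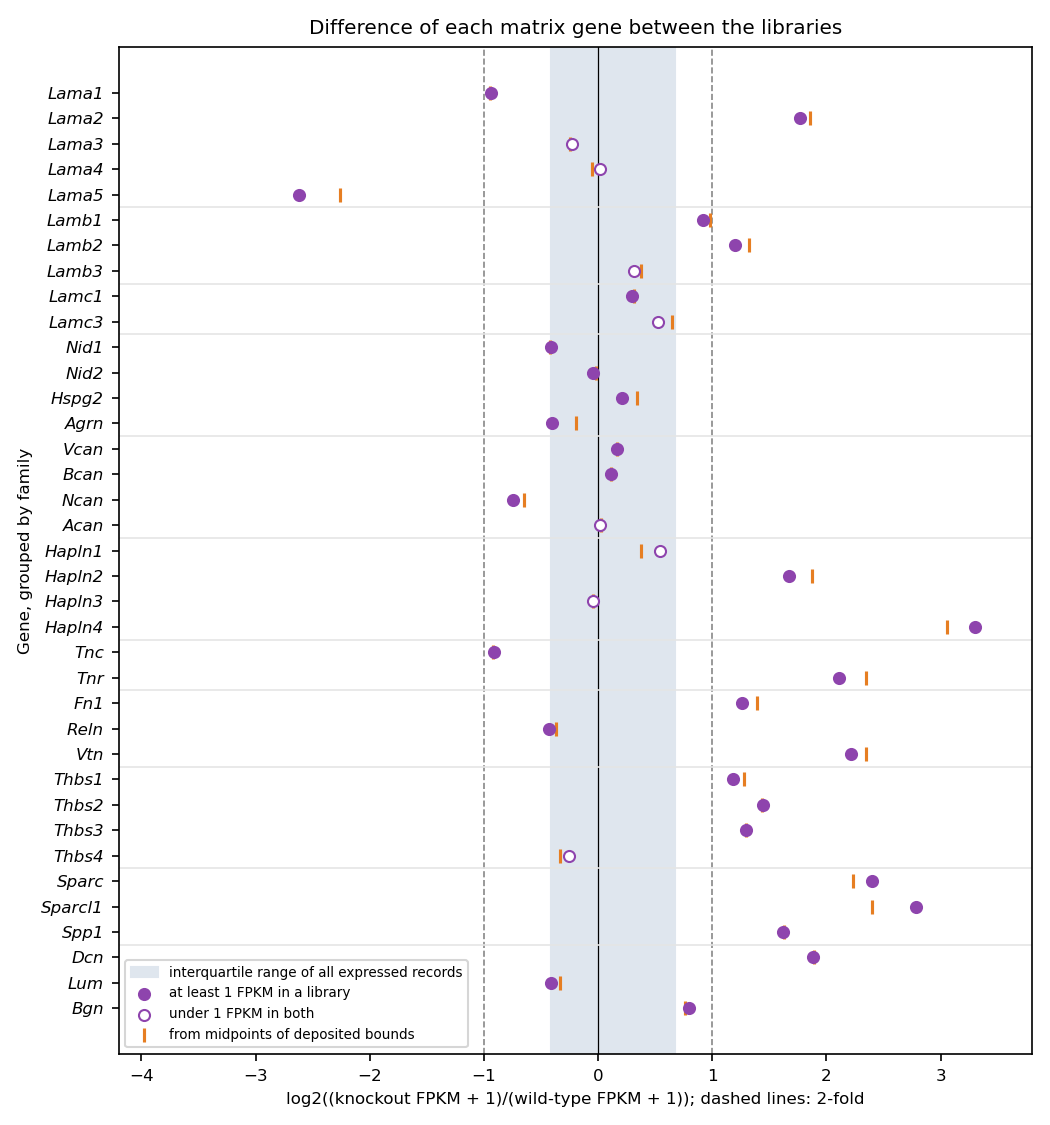
Log2 ratio of knockout over wild type for each of the 37 matrix genes, filled points for genes with at least 1 FPKM in a library, open points for those under it, and orange ticks for the ratio from midpoints of the deposited bounds. The shaded band is the interquartile range of all expressed records (-0.41 to 0.68) and dashed lines mark 2-fold. Lama5 alone lies beyond the lower line, and 14 genes lie beyond the upper line by both measures.

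The members called higher that had a window held few CG pairs before their start. RefSeq windows were found for 25 of the 37 genes, 20 of them expressed. Of the 14 genes called higher, Dcn, Fn1, Hapln4, Sparcl1 and Thbs1 had no window. Among the genes under 1 FPKM in both libraries, Hapln1 and Lamb3 held 2 CG pairs each, Hapln3 8, Thbs4 19 and Acan 26. The 9 called higher held a median of 3 CG pairs in the 250 bases before the start (range 0 to 9), the 10 within 2-fold a median of 15 (range 6 to 37), and Lama5, called lower, 19. Over all expressed genes with a window, the median was 12 for 1473 called higher, 17 for 7178 within 2-fold and 17 for 759 called lower. Agrn (35 pairs) and Reln (37 pairs) had the most and were within 2-fold. This was seen after the values were known and is a description with no test. Motifs were searched on both strands. The Gli consensus GACCACCCA was found in 0 of the 25 genes' windows and in 0.225% of 32851 mouse windows of this length, and the AP-1 site TGAGTCA in 0 and in 4.46%. The GC box GGGCGG stood in windows of 14 of the 25 genes (56.0%) and in 32.7% of all windows, the CCAAT box in 9 of 25 (36.0%) and 33.8%, and TATAAA in 6 of 25 (24.0%) and 12.4%. All windows include those of genes not expressed here, and a matrix gene was counted if any of its windows matched. The shares are therefore not like for like. No matches of these motifs overlapped in the windows shown.

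**Figure D5:**
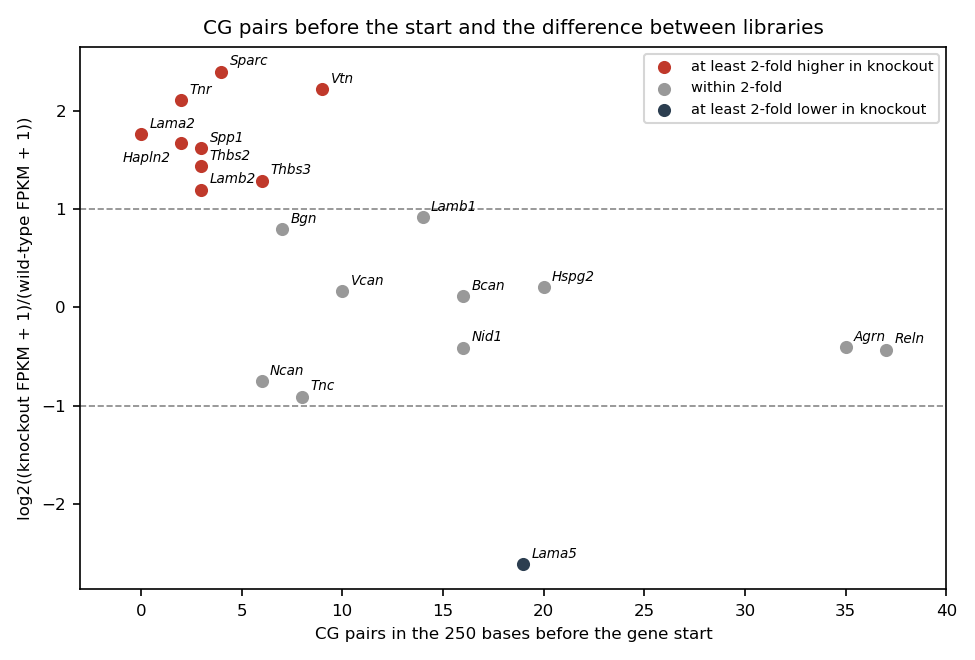
CG pairs in the 250 bases before the start (horizontal axis) against the log2 ratio of knockout over wild type (vertical axis) for the 20 expressed matrix genes with a RefSeq window, coloured by call, with dashed lines at 2-fold. Of the 14 genes called higher, the 9 with a window hold 0 to 9 CG pairs, and Lama5, called lower, holds 19.

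Receptors and enzymes that act with this matrix were counted from lists of genes at any level. Of all records 9.01% were called higher and 4.85% lower, as given above. Most genes of each list reached 1 FPKM in a library, and of all records that did, 16.1% were called higher and 8.67% lower. Of 22 matrix receptors 5 were called higher (22.7%) and 1 lower (4.55%). Itga3, a laminin-binding integrin chain, had 5.79 FPKM in the knockout and 0.633 FPKM in the wild-type library (log2 ratio 2.06). Cd47, a thrombospondin receptor, had 35.2 FPKM in the knockout and 7.83 FPKM in the wild-type library (log2 ratio 2.04), and Itgb8, a chain that binds vitronectin and latent TGF-beta with the alpha V chain, had 9.23 FPKM in the knockout and 2.89 FPKM in the wild-type library. Of 17 genes of the dystroglycan complex, the other laminin receptor, 1 was higher and 0 lower. The higher one was Dtna, which encodes the scaffold protein dystrobrevin, with 21.1 FPKM in the knockout and 6.09 FPKM in the wild-type library (log2 ratio 1.64). The most abundant members were within 2-fold. Dag1, which encodes dystroglycan itself, had 25.8 FPKM in the knockout and 16.5 FPKM in the wild-type library (log2 ratio 0.61), and Sgcb, a sarcoglycan, had 21.5 FPKM in the knockout and 17.3 FPKM in the wild-type library (log2 ratio 0.30).

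In the reelin pathway 2 of 10 genes other than the ligand were higher (20.0%) and 0 lower. All 10 reached 1 FPKM in a library, and of all records that did, 16.1% were called higher. The receptor gene Lrp8 had 11.9 FPKM in the knockout and 4.28 FPKM in the wild-type library (log2 ratio 1.29). Dab1, the intracellular adaptor of the receptors, had 7.63 FPKM in the knockout and 2.69 FPKM in the wild-type library (log2 ratio 1.23). Vldlr, the other receptor, named here after its value was seen, was within 2-fold at 14.6 FPKM in the knockout and 7.84 FPKM in the wild-type library (log2 ratio 0.81). All 7 Purkinje cell markers were called higher in the same library, and their part in these values was not tested.

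Enzymes of chondroitin sulfate synthesis were called lower in 3 of 21 cases (14.3%) and higher in 0. Chsy1, a chondroitin polymerase, had 3.83 FPKM in the knockout and 16.3 FPKM in the wild-type library (log2 ratio -1.84). The genes of 2 enzymes that build the linker between sugar chain and core protein, shared with heparan sulfate, were the others. B3galt6 had 2.89 FPKM in the knockout and 9.57 FPKM in the wild-type library, and Xylt2 had 6.55 FPKM in the knockout and 18.5 FPKM in the wild-type library. Among 7 hyaluronan enzymes, the synthase gene Has3 was higher (2.88 FPKM in the knockout and 0.854 FPKM in the wild-type library, log2 ratio 1.07) and Hyal2, of hyaluronan breakdown, lower (7.37 FPKM in the knockout and 19.04 FPKM in the wild-type library, log2 ratio -1.26). Neither call held with the midpoints of the deposited bounds (0.84 and -0.97), and that of Has3 was also lost after centring on the median (0.98).

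Among 7 surface proteoglycans and chondroitin sulfate receptors 2 were higher and 1 lower. Ptprz1, a receptor phosphatase of glia that carries chondroitin sulfate, had 51.3 FPKM in the knockout and 20.96 FPKM in the wild-type library (log2 ratio 1.25). The Nogo receptor gene Rtn4r had 7.90 FPKM in the knockout and 21.1 FPKM in the wild-type library (log2 ratio -1.31), while its relative Rtn4rl1 had 5.04 FPKM in the knockout and 0.867 FPKM in the wild-type library (log2 ratio 1.69). Of 12 genes of cell-surface heparan sulfate proteoglycans and agrin receptors 1 was higher and 2 lower. Sdc4, a syndecan that binds fibronectin together with integrins, had 38.1 FPKM in the knockout and 2.88 FPKM in the wild-type library (log2 ratio 3.33). The glypican genes Gpc3, with 0.976 FPKM in the knockout and 6.22 FPKM in the wild-type library, and Gpc1, with 13.2 FPKM in the knockout and 31.8 FPKM in the wild-type library, were lower.

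Of the marker lists not yet given, 6 of 7 for granule neurons were called higher, with sums of 524.4 FPKM in the knockout and 128.03 FPKM in the wild-type library. Choroid plexus markers, another source of matrix, had 0 of 6 called, with sums of 1086 FPKM in the knockout and 1012 FPKM in the wild-type library. Nearly all of both sums came from Ttr, with 1069.9 FPKM in the knockout and 997.4 FPKM in the wild-type library. Of 3 erythroid genes found at a single locus 2 were higher, with sums of 15.02 FPKM in the knockout and 2.93 FPKM in the wild-type library.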

How the data were processed

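Gene expression was measured by RNA sequencing of total RNA from 1 Brg1 knockout and 1 Brg1 wild-type tumour. The deposited values are FPKM per gene with a lower and an upper bound, per the file headers. Cuffdiff 2.1.1 and mm10 are named without a role in the submitters' processing notes. For aligner, annotation, filters and strandedness the entry is: not given in the sources used here. No whole reads could be recovered: among 650 genes under 0.05 FPKM in both libraries, the fullest 0.1-wide bin of the log2 ratio held 7.69%, so depth is unknown and intervals for counting error cannot be given. FPKM summed to 343028 in the knockout and 388032 in the wild-type library.

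Deposited starts count from 0. Adding 1 matched the RefSeq GRCm38.p6 start for 20 of the 37 genes, against 2 without it. All 37 records had status OK in both libraries and stood at 1 locus. In GENCODE M21, 16 of the 37 overlap a gene on the opposite strand, 3 of them a protein-coding one (Lamb3, Nid2 and Thbs3). Log2 ratios used a pseudocount of 1 FPKM, a minimum of 1 FPKM in a library and a 2-fold rule, computed with Python 3.11.15, numpy 2.4.6 and pandas 2.3.3 and plotted with matplotlib 3.10.9. The calling step was run on simulated data with 4-fold differences placed in genes of at least 5 FPKM. Recovery past the 2-fold rule was largely built in, so the simulation says nothing of low genes or of spread between animals. No test across samples is possible with 1 library per group.

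The genes, the lists of related and marker genes, the settings and the rule for named genes were chosen with earlier results of these data known. The rule took each of the 37 genes, Smarca4, and in each related list up to 3 expressed genes by size of log2 ratio among those past the 2-fold rule, or else the 2 most abundant. Genes at several loci were left out of the lists, and some list genes are not reported here. Alternatives were other pseudocounts, scalings, filters, fold thresholds, and the midpoint of the bounds.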

Additional observations from a re-analysis of the deposited data

How the results depend on the processing

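Of 15 matrix genes called, 15 stayed past 2-fold in the same direction under each of the 10 settings, fold thresholds aside, that kept them, and 11 of the 14 expressed genes within 2-fold stayed there. The exceptions were Lama1, Tnc and Lamb1, each close to the cutoff. The 8 genes under 1 FPKM in both libraries were hardly reached by these settings. With 0.1 FPKM added and no filter, chosen after seeing the data, Hapln1 (2.01), Lamb3 (1.64) and Lamc3 (1.30) were also called higher and Thbs4 (-1.31) lower, which made 18 higher and 4 lower. The count of genes called lower, 1 as reported, was 3 with 0.1 FPKM or 0.5 FPKM added (Lama5, Lama1 and Tnc), 2 after centring on the median (Lama5 and Lama1) and 4 at a 1.5-fold threshold. Apart from the setting with 0.1 FPKM and no filter, the count of genes called higher, 14 as reported, ranged from 10 with at least 5 FPKM required to 16 at 1.5-fold, and was 5 at a 4-fold threshold (Hapln4, Sparc, Sparcl1, Tnr and Vtn). These counts differ by the construction of the settings, which lower or raise the cutoff or drop low genes. The median log2 ratio of the expressed genes, 0.92, was 0.31 with no filter on low values, where the 8 genes under 1 FPKM in both libraries join, and lay from 0.76 to 1.19 otherwise. The value of 0.92 includes genes that passed the filter through 1 library alone. No matrix gene changed direction past a cutoff (0 of 37) under the settings that kept it. From the bound midpoints Sparc and Sparcl1 took 62.7% of the sum of the 37 genes in the wild-type library in place of 34.7% (chosen after seeing the data), the share of Hapln2 among link proteins in the knockout library was 21.98% in place of 14.3%, and in the wild-type library the shares of Lama2 and Lama4 among alpha chains were 2.28% and 4.75% in place of 1.45% and 2.36%, and the cause was not tested. No paired analysis was possible because there is 1 library per genotype. For the same reason no library could be left out. Low genes such as Acan, Lamb3 and Thbs4 are limited by a depth that is unknown here.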
